A study of Arabidopsis thaliana with 14 samples.

Results

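Sections of whole Arabidopsis thaliana seeds were set against the 6 seed compartments captured one by one. The question was which transcripts read outside the range of the compartments in a section that holds all of them, and which compartment-specific transcripts still appear there. The 2 whole seeds arrays of 14 arrays in all form the group described. A probe set, the set of short probes that reads 1 transcript, was taken as outside the range when both whole seeds arrays lay above the highest, or below the lowest, of the 6 compartment means. Signals under 25 were first set to 25, and this value is called the floor.

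All groups came from seeds of genotype Ws-0 at the mature green stage, taken from siliques of plants 38 to 46 days old in continuous light. Siliques were fixed, embedded in paraffin and sectioned, and tissue was cut out with a laser. The groups were whole seeds, collected as serial sections, then embryo proper, micropylar endosperm, peripheral endosperm, chalazal endosperm, chalazal seed coat and seed coat, with 2 biological replicates each. Between 5 and 6 ng of RNA per sample went into an amplification step, and the product was hybridised to an Affymetrix ATH1 array. How many seeds and sections went into a sample is not stated in the labels, so a p-value here speaks of the spread over these samples, which may be partly technical.

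An Arabidopsis seed at this stage is filled by a green embryo whose cotyledons store protein and oil and make the proteins that protect cells during drying. The endosperm, a nourishing tissue from a separate fertilisation, is by then a thin layer around the embryo with specialised cells at its micropylar end, next to the root tip, and at its chalazal end, next to the seed's stalk. The seed coat is maternal tissue, and its chalazal end receives nutrients from the mother plant.

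The whole seeds arrays resembled the embryo most. Over the 14257 probe sets tested, which are not independent replicates, the Pearson correlation of log2 signals between a whole seeds array and a compartment array was 0.803 to 0.827 for embryo, 0.787 to 0.804 for peripheral endosperm and 0.746 to 0.782 for micropylar endosperm. It was 0.667 to 0.733 for chalazal endosperm, 0.581 to 0.672 for seed coat and 0.51 to 0.569 for chalazal seed coat, against 0.914 between both whole seeds arrays. The 3′ to 5′ signal ratio of GAPDH, a sign of how far RNA is degraded, was 2.84 and 2.71 on the whole seeds arrays. On the compartment arrays it was 3.53 to 7.1. The same ratio of actin did not set whole seeds apart, at 14.6 and 9.19, against 4.13 to 16.9 on the compartment arrays. The hybridisation spike-in controls averaged 45490 and 46200 on the whole seeds arrays, 33510 to 54630 on 10 of the compartment arrays, and 82310 and 117000 on the seed coat arrays. The part of these differences in the results below was not tested.

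The mean of whole seeds lay within the range of the 6 compartment means for 11198 probe sets, 78.5% of those tested. Both whole seeds arrays lay above the range for 1035 probe sets (7.26%) and below it for 850 (5.96%). The single arrays were above it for 1765 and 1935 probe sets and below it for 1814 and 1932, so 53.5% to 58.6% of one array's probe sets above the range repeated on the other array, and 44% to 46.9% of those below. Another 137 probe sets were above the range on one array and below it on the other. The distance outside was mostly small, with a median of 0.24 (log2) above and 0.23 below, and it reached 2-fold for 35 probe sets on each side. When each of the 12 compartment arrays had to be passed, 509 and 245 probe sets were left. The limma test that whole seeds differ from all 6 compartments called 0 probe sets above (0%) and 0 below (0%) at an adjusted p under 0.05, with a smallest adjusted p of 0.96. In simulated data this test called 31 of 200 probe sets placed 2 (log2) outside the range, and 173 of 200 at 4. The largest distance seen here was 2.19, so the 0 calls do not show that whole seeds lay inside the range. At an unadjusted p under 0.05, limma had 39 probe sets above (0.274%) and 56 below (0.393%).

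Counts of this kind were not peculiar to whole seeds. Against the range of the other 6 groups, whole seeds were above for 1035 and below for 850 probe sets, whereas embryo was above for 1344 and below for 1583. Peripheral endosperm had the fewest, with 580 and 735, followed by micropylar endosperm with 711 and 935. Chalazal endosperm had 1176 and 925. Both seed coat parts had the most, with 1839 and 2037 for chalazal seed coat and 1944 and 1417 for seed coat. Without seed coat, whose arrays had the high spike-in signals, whole seeds lay above the range of the remaining 5 compartments for 1298 probe sets and below it for 1104.

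**Figure D1:**
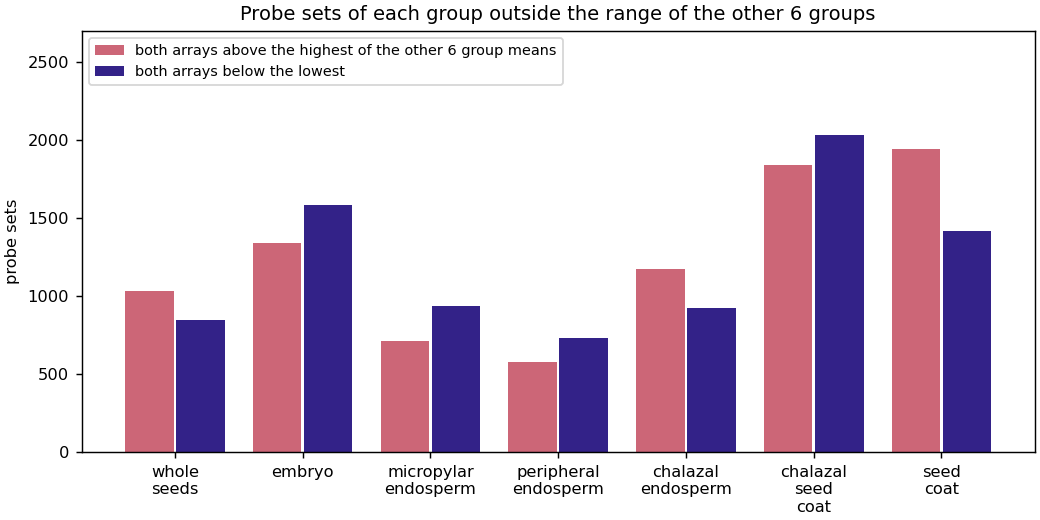
Number of probe sets (vertical axis, from 0) for which both arrays of a group lay above the highest (red) or below the lowest (blue) of the other 6 group means, out of 14257 tested. Whole seeds, at 1035 and 850, stand between the micropylar and peripheral endosperm, which have fewer above, and embryo and both seed coat groups, which have more on both sides.

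For the probe sets above the range, the highest compartment was most often the embryo. Their median whole seeds signal was 1030, against 420 over all probe sets tested, and that of the probe sets below the range was 348. The whole seeds signal took part in the choice of both sets, so this difference is no separate result. For 504 of the 1035, or 48.7%, the embryo was the highest compartment, which it was for 20.6% of all tested. Peripheral endosperm was the highest for 18.1%, against 9.6% of all tested. Seed coat was the highest for 8.41%, against 22.1%, and chalazal seed coat for 4.73%, against 20.2%. Of the 1035, 87 passed the filter on dim probe sets (both arrays of at least 1 group above the array median) only through whole seeds, so they had to be high there. The same holds for 11 of the 35 at least 2-fold above and 5 of the 39 with an unadjusted limma p under 0.05. With the filter on the 12 compartment arrays alone, a check added after the data were seen, 948 were above the range and 850 below. Among the probe sets below the range, 50 had both whole seeds arrays at or under the floor, so only a bound is known for them.

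SPCH (AT5G53210) had the largest distance above the range of the genes that could be named. It encodes SPEECHLESS, the transcription factor that starts the stomatal lineage in the epidermis. Its signal was 344 and 371 in whole seeds, against 104 and 81 in embryo and 3.2 to 69.6 on the other 10 arrays. Both whole seeds arrays were above all 12 compartment arrays, and in micropylar and chalazal endosperm all arrays were under the floor. Whole seeds exceeded embryo by 1.96 ± 0.72 (log2 difference and SE), with a limma adjusted p of 0.154, which did not pass. SPCH passed the filter only through whole seeds, which favours such a difference, so its p-values give no support to it. Of 109 probe sets that passed in this way, 87 lay above the range on both arrays. The largest of the 6 unadjusted limma p-values was 0.015. With a floor of 100 in place of 25, SPCH was the probe set called above all 6 compartments, at a limma adjusted p of 0.0090. That floor sets every compartment value of SPCH except 104 in embryo replicate 1 to 100. It thus removes nearly all spread within the compartments, so this call gives no support either. The largest unadjusted limma p was 0.22 with no floor, 0.053 without whole seeds replicate 2 and 0.069 without embryo replicate 2.

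Of the 14 genes named above the range, 7 passed the filter only through whole seeds, which favours a difference in the same way. They were SPCH, AT5G62210, AT1G47670, AT3G55710, AT1G05440, AT5G26350 and ANX1. The other 7, among them scpl25, THE1, SBT1.3 and TUB5, also passed through a compartment. scpl25 (AT3G02110), a serine carboxypeptidase-like protein, had 981 and 1152 in whole seeds, against 501 and 362 in embryo, its highest compartment. THE1 (AT5G54380), the receptor-like kinase THESEUS1 that monitors the cell wall, had 1499 and 1358 in whole seeds, against a highest compartment mean of 704 and a highest single array of 938. SBT1.3 (AT5G51750), a subtilisin-like protease, had 1454 and 1517 in whole seeds and 831 and 460 in embryo. In all 3 genes both whole seeds arrays were higher than every compartment array. The largest of the 6 unadjusted limma p-values was 0.042 for scpl25, 0.028 for THE1 and 0.16 for SBT1.3, and their adjusted p in the limma range test was 1. TUB5, a beta-tubulin, averaged 584 ± 69 (SD, n = 2) in whole seeds, against a highest compartment mean of 283. ANX1, a receptor kinase known from pollen tubes, averaged 208 ± 20 (SD, n = 2), against 109.

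Several genes above the range are known here only by their locus. AT5G62210 had 540 and 607 in whole seeds, against 276 and 14.8 in embryo, so the nearer array lay 1.85 (log2) above the highest mean. The embryo arrays of this gene differ widely, and the same holds for AT4G16980, with 2879 and 2871 in whole seeds and 1992 and 267 in embryo. AT1G72810 had 841 and 712 in whole seeds, against 302 on the highest compartment array. AT2G10940 was itself specific to the embryo, at 1920 and 968, and had 3261 and 3392 in whole seeds, which is 226% and 235% of the embryo mean. AT1G47670, AT3G55710, AT1G05440 and AT5G26350 lay 0.96 to 1.26 (log2) above the range.

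**Figure D2:**
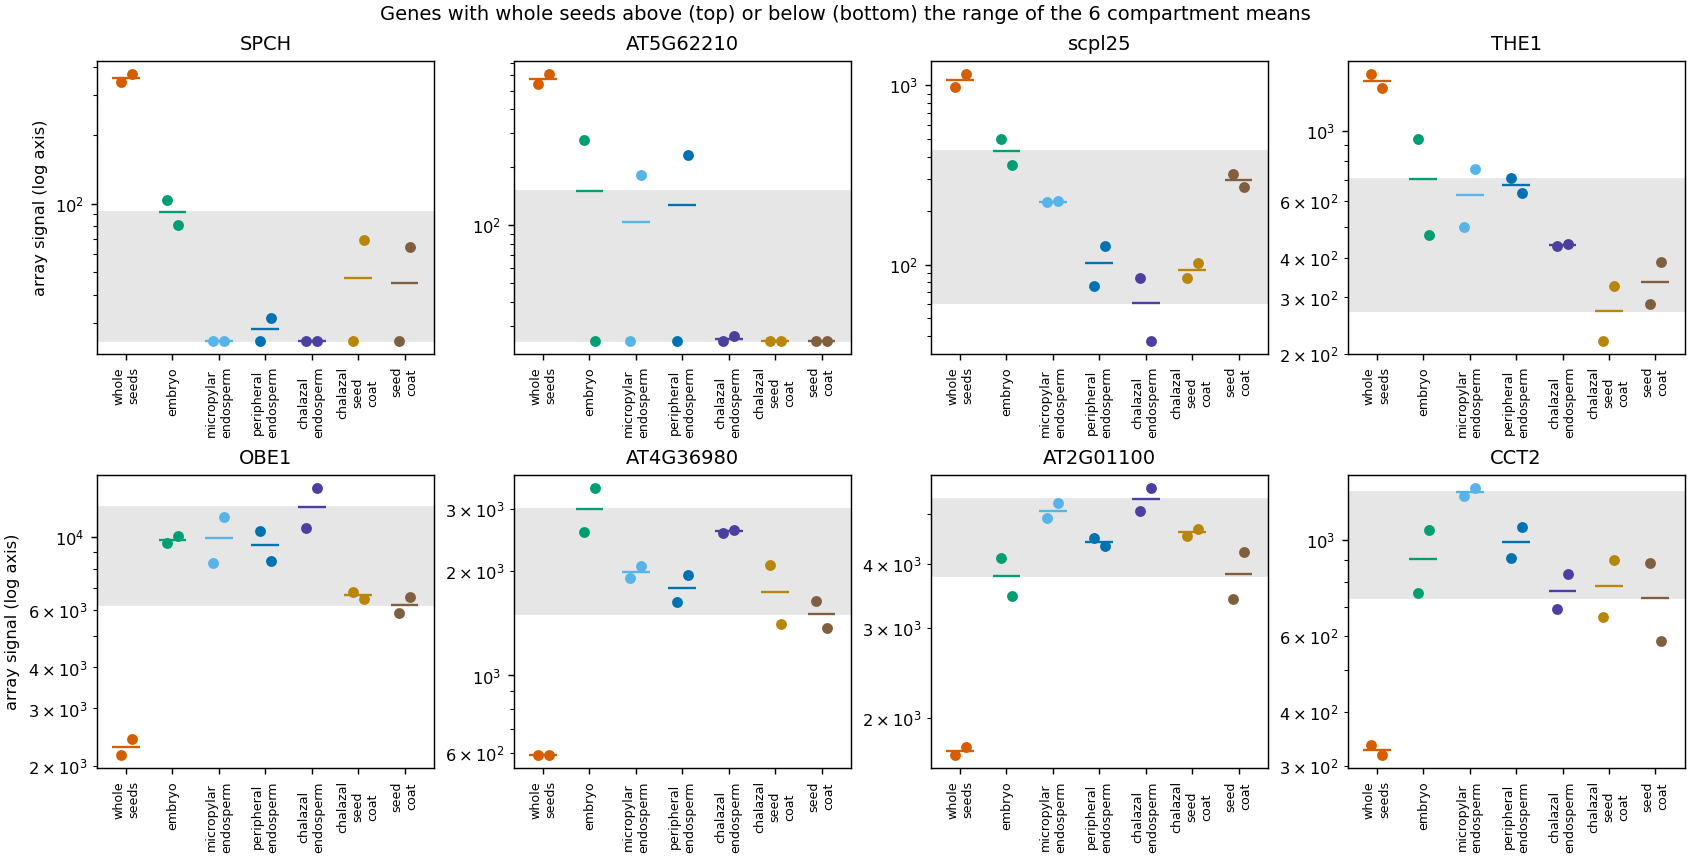
Array signal (log axes, 1 point per array, line at the group mean) of 4 genes above the range in the top row and 4 below it in the bottom row, with whole seeds first and the 6 compartments after it, values under 25 drawn at 25, and the range of the compartment means in grey. Whole seeds lie outside the grey band on both arrays in every panel, at 344 and 371 for SPCH and at 2164 and 2425 for OBE1.

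As deposited and with a floor of 25, the smallest p of the limma range test belonged to OBE1, below the range. OBE1 (AT3G07780), or OBERON1, is a PHD finger protein needed to keep the shoot and root meristems. Its signal was 2164 and 2425 in whole seeds, against 9562 and 10021 in embryo, 8311 and 11503 in micropylar endosperm, 10427 and 8457 in peripheral endosperm, 10643 and 14020 in chalazal endosperm, 6802 and 6481 in chalazal seed coat, and 5858 and 6533 in seed coat. Every compartment array was more than 2-fold above both whole seeds arrays. The log2 difference from single compartments was 1.43 to 2.41 in size with an SE of 0.27, always lower in whole seeds, and each of the 6 passed, at limma adjusted p-values of at most 0.00145. The largest unadjusted p of the 6 was 6.7e-05, and over all probe sets the limma range test gave an adjusted p of 0.96, or 0.34 with a floor of 100. The same arrays placed OBE1 outside the range, so the p-values of the 6 contrasts are no separate support for it. This holds for every gene named here as outside the range.

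OBE1 was 1 of a small group that passed against every compartment. Passing an adjusted p under 0.05 in each of the 6 limma contrasts, each adjusted on its own, left 10 probe sets lower in whole seeds than every compartment (0.0701%) and 1 higher (0.00701%). This requirement was chosen after the data were seen, and it is looser than the limma range test, which called none. The 10 were OBE1, AT2G01100, AT4G36980, AT4G28260, AT1G74250, AT5G40340, AT5G04750, CCT2, AT1G01240 and 1 probe set with no gene in the tables used. The 1 higher probe set also had no gene there, with 3357 and 4749 in whole seeds, against 1827 as the highest compartment mean. With 1 array left out, 2 probe sets were lower without peripheral endosperm replicate 2, 3 without peripheral endosperm replicate 1 or whole seeds replicate 2, 4 without micropylar endosperm replicate 2, 5 when its replicate 1 was dropped, and 6 without embryo replicate 2. The count was 7 to 11 without any of the other arrays. Scaling by the spike-in controls left 1 lower and 0 higher. A floor of 100 turned the balance, with 12 lower and 26 higher.

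In 3 of these genes both whole seeds arrays were close to each other. AT4G36980 had 591 and 592 in whole seeds, against 1366 to 3442 over the compartment arrays. AT2G01100 had 1694 and 1758, against 3419 to 5620. CCT2 (AT4G15130), which makes CDP-choline for the membrane lipid phosphatidylcholine, had 336 and 318 in whole seeds, against 584 to 1315. No compartment array of these 3 genes reached down to whole seeds. The smallest of the 6 log2 differences was 1.34 for AT4G36980, 1.13 for AT2G01100 and 1.14 for CCT2, each lower in whole seeds, with a limma adjusted p of at most 0.038. With the arrays scaled to the spike-in controls, the log2 difference from the lowest compartment shrank to -0.35 for OBE1, -0.29 for AT4G36980, -0.14 for CCT2 and -0.04 for AT2G01100, with largest unadjusted limma p-values of 0.32, 0.57, 0.93 and 0.9. CCT2 also reached 0.078 by that measure without seed coat replicate 1.

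Other genes below the range were dimmer or less even. AT1G74250 had 804 and 571 in whole seeds, against 1506 to 4769 over the compartment arrays. AT3G13780 had 281 and 543, against a lowest compartment mean of 1236. UPF3, a factor of nonsense-mediated mRNA decay, had 204 and 198 in whole seeds, against 293 to 577 over the compartment arrays. MED19A, a subunit of the Mediator complex that links transcription factors to RNA polymerase, had 409 and 83 in whole seeds, against a lowest compartment mean of 843, so its whole seeds arrays differ more from each other than many groups do. Phox4 had 65 and 31. AT2G15200 had 26.5 and 42.9 in whole seeds, against 1568 as its highest mean, in chalazal endosperm. AT2G20500, AT1G14930, AT5G29040, AT2G04063, AT3G02670 and UGT76D1, a glycosyltransferase, were under the floor on both whole seeds arrays, with lowest compartment means of 53 to 85.

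Whole seeds differed least from the embryo in single comparisons. In limma, whole seeds were higher than embryo for 505 probe sets (3.54%) and lower for 181 (1.27%), and higher than peripheral endosperm for 633 (4.44%) and lower for 371 (2.6%). The counts were 863 (6.05%) and 530 (3.72%) against micropylar endosperm, and 1364 (9.57%) and 964 (6.76%) against chalazal endosperm. They were largest against seed coat, with 2024 (14.2%) and 1464 (10.3%), and chalazal seed coat, with 2398 (16.8%) and 1768 (12.4%). The share of calls that were higher in whole seeds was 73.6% against embryo and 57.6% to 63% against the others. Dividing each array by its median put this share at 55.4% against embryo, 65.3% against seed coat and 35.7% to 47.3% against the other 4. Scaling to the spike-in controls put it at 76.1% against embryo, 93.9% against seed coat, 36.4% against peripheral endosperm and 48.2% to 54.3% against the other 3. It was 58.5% against embryo with a floor of 100 and 85% without embryo replicate 2, and 73.1% against peripheral endosperm without its replicate 2. Leaving out a whole seeds array lowered all 6 counts of calls by more than 1.5 times. Against embryo, where all arrays gave 686 calls in all, 254 and 292 were left without whole seeds replicates 1 and 2, and 419 and 393 without embryo replicates 1 and 2. The other counts without whole seeds replicate 1 were 483 for micropylar, 287 for peripheral and 989 for chalazal endosperm, 2770 for chalazal seed coat and 1947 for seed coat, and without replicate 2 they were 497, 307, 947, 2538 and 1653. Dropping compartment arrays left 538 and 760 calls against micropylar and 291 and 409 against peripheral endosperm (replicates 1 and 2), 1111 against chalazal endosperm (replicate 1) and 2726 against chalazal seed coat (replicate 1).

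Genes of seed maturation were set against the embryo list by list, and no test compared the lists with each other. LEA proteins (late embryogenesis abundant, which protect cells as they lose water) were lower in whole seeds than in embryo for 5 of the 11 genes tested of 19 listed, against 1.27% of all probe sets, and 0 were higher. Their signal in whole seeds was 28.3% of the embryo mean in the median, with a range of 5.12% to 347%. Storage proteins were at 50.8% of embryo in the median (23.1% to 82.1%, 5 of 13 listed), and 1 of 5 passed as lower. Oil body and oil synthesis genes were at 105% (73.3% to 257%, 4 of 23 listed), with 0 of 4 passing in either direction. Nuclear photosynthesis genes were at 119% (90.6% to 132%, 3 of 27 listed), with 0 of 3 passing. The tests behind the counts of 0 were limma tests adjusted over all probe sets. No member of the storage or LEA list was outside the range on both arrays, beside 13.2% of all probe sets tested. With 5 and 11 genes tested, this is no result about the lists. In sections of mixed tissue, fewer cells of a type and less RNA per cell cannot be told apart.

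AT2G42560 and AT4G21020 were lower in whole seeds than in embryo, micropylar endosperm and peripheral endosperm. AT2G42560 had 1587 and 1261 in whole seeds, against means of 27821 in embryo, 47284 in micropylar endosperm and 33030 in peripheral endosperm. The log2 difference was -3.89 ± 0.73 (SE) from embryo, at a limma adjusted p of 0.0042, and -5.06 ± 0.73 from micropylar endosperm, at a limma adjusted p of 0.00046. AT4G21020 had 2741 and 2509 in whole seeds, against 23497 in embryo, 18259 in micropylar endosperm and 13883 in peripheral endosperm. The log2 difference from embryo was -3.16 ± 0.41 (SE), with a limma adjusted p of 0.00017. These genes were thus far under the 3 tissues in which they were highest, while chalazal seed coat, with means of 72.3 and 326, set the low end of their range. AT3G15670 was at 5.46% of embryo, AT3G17520 at 13.7% and AT5G44310 at 29.3%, with limma adjusted p-values of 0.034, 0.014 and 0.012. COR47, a dehydrin, was at 347% of embryo with 554 and 319 in whole seeds, against 126 in embryo, and did not pass (limma adjusted p = 0.129). The count of 5 became 3 without embryo replicate 1, 1 without embryo replicate 2, 2 without whole seeds replicate 1, 1 without whole seeds replicate 2, and 2 when all probe sets were tested with no filter.

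Storage and oil genes had medians nearer to the embryo level than the LEA list. AT2G18540, a cupin-family seed protein, had 24882 and 26426 in whole seeds, against 87767 in embryo, and was the storage gene that passed (log2 difference -1.77 ± 0.37, limma adjusted p = 0.0089). PAP85, a vicilin-like storage protein, had 25585 and 32319 in whole seeds, against 57047 in embryo and 24371 in micropylar endosperm. OLEO3, an oleosin of the oil body surface, had 77111 and 66181 in whole seeds, against 76738 in embryo and 33502 in peripheral endosperm. AT3G02630, an acyl carrier protein desaturase gene, had 10436 and 8181, against 8026 in embryo, and lay above the range on both arrays. FATB, an acyl carrier protein thioesterase, had 1254 and 1255, against 488 in embryo and 1996 in peripheral endosperm. LHCB4.1, a light-harvesting protein of photosystem II, had 10782 and 10506 in whole seeds, against 8054 in embryo, and PSAE-1, a subunit of photosystem I, had 10305 and 8872, against 8062. Both lay above the range on both arrays, with differences from embryo that did not pass in limma (log2 0.41 ± 0.33 and 0.25 ± 0.34).

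**Figure D3:**
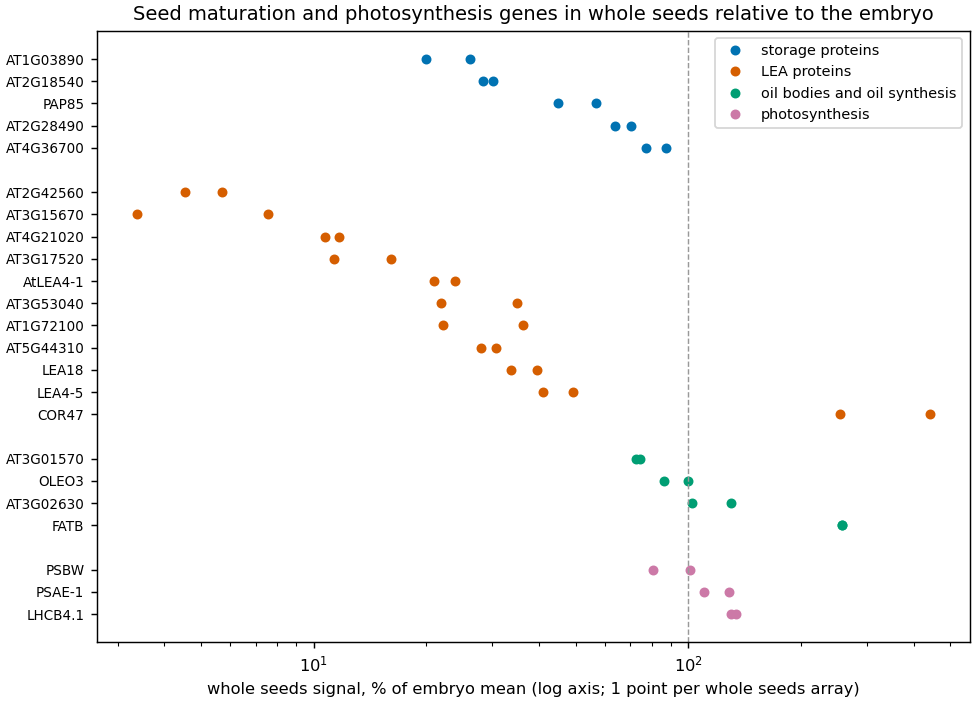
Signal in whole seeds as a percentage of the embryo mean (log axis, 1 point per whole seeds array, dashed line at 100%) for 23 genes of storage proteins, LEA proteins, oil and photosynthesis. Most LEA genes lie well to the left of the line with a median of 28.3%, while the oil and photosynthesis genes lie around it.

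Many transcripts of the chloroplast genome sat at the upper edge of the range or just above it. Of 69 such probe sets, 28 lay above all 6 compartment means on both whole seeds arrays, beside 7.26% of all probe sets tested, and 0 lay below. The distances were small, at most 0.60 (log2), and in limma none of the 69 was called above the range. rpoB, a subunit of the plastid RNA polymerase, had 4703 and 5023 in whole seeds, against a highest mean of 3110 in embryo. rbcL, the large subunit of the enzyme that fixes carbon dioxide, had 56275 and 57772, against 40088 in peripheral endosperm. psaA, a core protein of photosystem I, had 32209 and 37075, against 26794 in micropylar endosperm. Other members stayed inside, such as psbA, the core protein of photosystem II, with 45852 and 48986 in whole seeds and 54363 in micropylar endosperm, and clpP, a protease subunit, with 15930 and 17426, against 12906 in its lowest compartment and 24272 in its highest.

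The chloroplast transcripts differed most between whole seeds and chalazal seed coat. Their median log2 difference, whole seeds minus compartment, was 1.94 for chalazal seed coat, 0.73 for seed coat and 0.71 for chalazal endosperm. It was 0.39 for peripheral endosperm, 0.23 for embryo and 0.21 for micropylar endosperm, while the median of all probe sets tested was 0.01 to 0.11. In limma, 62 of 69 were higher in whole seeds than in chalazal seed coat, beside 16.8% of all probe sets, 24 than in seed coat, beside 14.2%, and 15 than in chalazal endosperm, beside 9.57%. Against embryo 0 passed, and against micropylar and peripheral endosperm 1 was higher and 1 lower in each. The count above the range depended on scaling: it was 4, with 1 below, after division by the array median, 12 with spike-in scaling, 32 after quantile normalization, and 43 when whole seeds replicate 1 was left out. Of 20 mitochondrial transcripts tested, 1 lay above the range, beside 7.26% of all probe sets. It was nad1, with 1023 and 1048 in whole seeds, against 870 in seed coat. The median differences of the 20 were between -0.28 and 0.42.

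**Figure D4:**
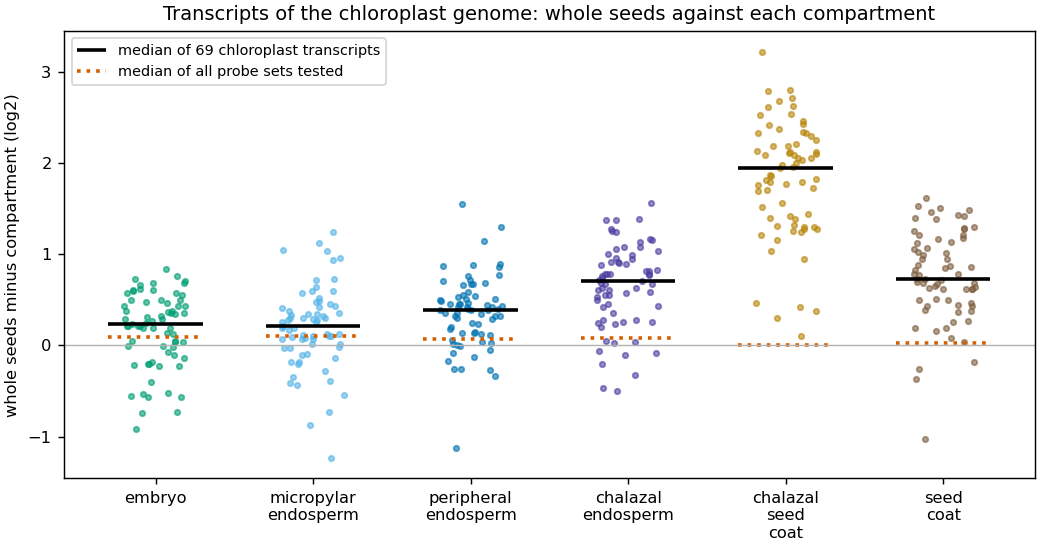
Log2 difference of whole seeds minus each compartment for 69 chloroplast transcripts (points), with their median (black line) and the median of all probe sets tested (dotted line). The medians are 0.23 for embryo, 0.21 for micropylar endosperm, 0.39 for peripheral endosperm, 0.71 for chalazal endosperm, 1.94 for chalazal seed coat and 0.73 for seed coat.

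Most compartment-specific transcripts were still above the floor in whole seeds, but those of the embryo kept far more of their signal. On the whole seeds arrays 81.6% and 80.6% of all probe sets other than controls were above the floor. A signal above it therefore does not show that it came from the own compartment. The 12 compartment arrays alone gave 714 specific probe sets (5.01% of those tested), each at least 1 (log2) above every other compartment with a limma adjusted p under 0.05 in all 5 contrasts. The level in the own compartment took part in that choice, and the whole seeds arrays entered only through the filter on dim probe sets. With that filter on the 12 compartment arrays alone, there were 723 specific probe sets, 604 shown and 33 lost. Of the 714, 599 (83.9%) were above the floor on both whole seeds arrays, beside 95.2% of all probe sets tested, and 33 were lost, meaning at or under the floor on both, beside 0.919%. Another 82 appeared on 1 array. With the stricter mark of lying above the array median on both arrays, 423 (59.2%) were shown, beside 72.1% of all tested. The share shown was 86.2% for embryo, 59.6% for seed coat, 42.5% for chalazal seed coat, 41.4% for chalazal endosperm and 20% for micropylar endosperm. Without chalazal seed coat replicate 1 there were 474 specific probe sets and 397 shown. The 33 lost became 58 without seed coat replicate 2, 83 without whole seeds replicate 1 and 65 without whole seeds replicate 2.

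**Figure D5:**
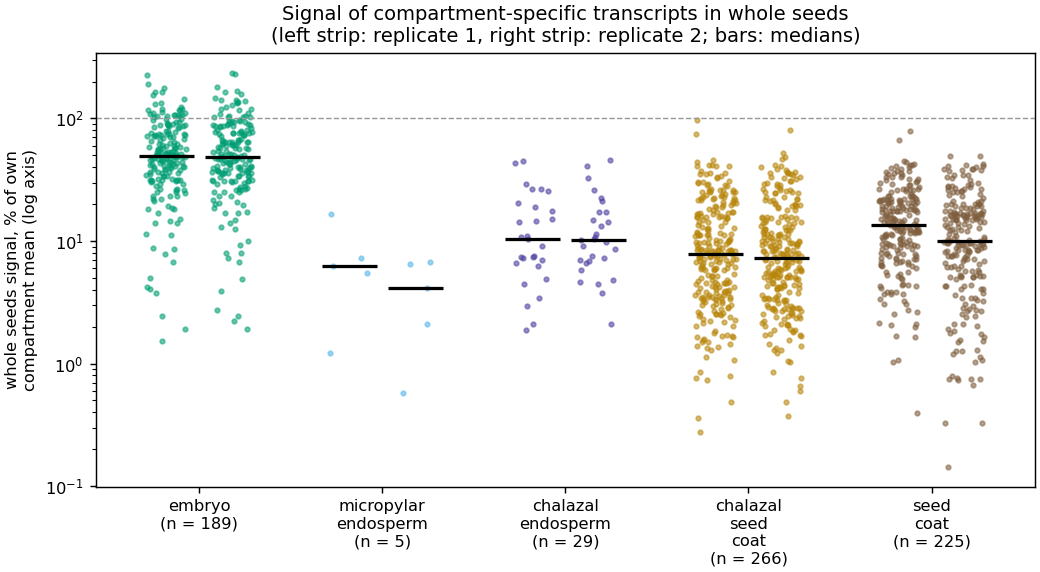
Whole seeds signal of each compartment-specific probe set as a percentage of the mean in its own compartment (log axis, values under 25 counted as 25), with replicate 1 in the left strip and replicate 2 in the right strip of each pair, black bars at the medians and a dashed line at 100%. Embryo-specific transcripts centre on 49.8% and 48.7%, and those of chalazal seed coat on 7.9% and 7.25%.

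Embryo-specific transcripts were the best kept. Of 189, whole seeds showed 182 (96.3%) and lost 2, and the median signal was 49.8% and 48.7% of the embryo mean on both arrays, with the middle 50% of probe sets between 33.5% and 78.5%. In 24 the whole seeds mean exceeded the embryo mean, and 17 lay above the range on both arrays, which is close to the 7.26% of all probe sets. In limma, 28 were lower in whole seeds than in embryo, beside 1.27%. YAB3, a YABBY transcription factor of the lower side of leaves and cotyledons, had 1757 and 1287 in whole seeds, against 1978 and 1557 in embryo and at most 99.9 as the mean elsewhere, so the whole seeds and embryo arrays overlapped. STOMAGEN, a peptide from inner tissue that promotes stomata, had 1856 and 1060 in whole seeds, against 5110 and 2983 in embryo, or 45.9% and 26.2%. SNZ, a repressor of flowering, had 97.9 and 118, against 602 and 289. AT5G27160 was lost, with 3.8 and 10.6 in whole seeds, against 802 and 1810 in embryo, which puts it at no more than 1.91% of the embryo mean.

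Chalazal seed coat had the most specific transcripts, and they kept little of their signal. Of 266, whole seeds showed 203 (76.3%), lost 18 and had 45 on 1 array. The median signal was 7.9% and 7.25% of the own compartment, and 256 were lower in whole seeds by the limma test, beside 12.4% of all probe sets. SWEET10, a sugar transporter, had 587 and 496 in whole seeds, against 34178 and 18253 in chalazal seed coat, or 2.24% and 1.89%. Its means in the other 5 compartments were 25 to 33.8, so in whole seeds it exceeded embryo by 4.05 ± 0.64 (log2, limma adjusted p = 0.000909). scpl31, a carboxypeptidase-like gene, was at 0.738% and 1.44%, and PME61, a pectin methylesterase, at 8.81% and 5.61%. The mean of scpl31 was 105 in whole seeds, 158 in chalazal endosperm and 123 in seed coat. BAN, the anthocyanidin reductase of tannin synthesis, had 70.6 and 68.1 in whole seeds, against a mean of 773 in chalazal seed coat. DFR, an earlier enzyme of that pathway, had 78.7 and 180, against 1920. The cytochrome P450 gene CYP718, the trihelix factor GT2 and the root growth regulator UPB1 were lost, with means in chalazal seed coat of 761, 422 and 597.

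Seed coat transcripts were also kept at a low level. Of 225, whole seeds showed 194 (86.2%), lost 9 and had 22 on 1 array, and the median signal was 13.4% and 9.93%, with 201 lower in limma, beside 10.3% of all probe sets. Their median was 8.57% without chalazal seed coat replicate 1 and 15.9% without its replicate 2. SAG29, also known as SWEET15, a sugar transporter of ripening seeds, had 2033 and 1805 in whole seeds, against 13994 and 15670 in seed coat. Its mean was 53.4 in embryo, but 1751 in peripheral endosperm and 1383 in chalazal endosperm. Which tissue its whole seeds signal came from was not tested. iqd15, of a family of calmodulin-binding proteins, was at 22.2% and 12.5% of its seed coat mean. It averaged 1112 in whole seeds and 993 in chalazal seed coat. TBL30, of a family of wall polysaccharide acetyltransferases, was at 8.97% and 5.94%. It averaged 89.3 in whole seeds and 110 in embryo. AT2G22900 kept 23.1% and 23.5%. ARA12, a subtilisin-like protease of mucilage release, was not specific by the rule, with 4968 and 4000 in whole seeds, against 15565 in seed coat and 7773 in chalazal seed coat. AT3G04170, the kinase gene cdc2cAt and SP1L2, a SPIRAL1-like microtubule protein, were lost from whole seeds, with seed coat means of 2358, 915 and 364.

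Endosperm left few specific transcripts to follow. Of 29 for chalazal endosperm, whole seeds showed 18 (62.1%), lost 4 and had 7 on 1 array, at a median of 10.3% and 10.2%. That median was 5.24% without chalazal endosperm replicate 1. TET11, a tetraspanin, had 300 and 176 in whole seeds, against 1656 and 387 in chalazal endosperm. B160 had 372 and 342, against 6444 and 3824, and also lay below the lowest compartment mean, 493 in embryo. AT5G57500 kept 7.44% and 7.29%, while AT3G20180, AT5G07570 and AT3G47320 were lost. Micropylar endosperm had 5 specific probe sets, of which 2 were shown and 0 lost, at 6.3% and 4.15%, and peripheral endosperm had 0. AT1G09370 was one of the 5, with 80.3 and 71.4 in whole seeds, against 946 and 1259 in micropylar endosperm.

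Endosperm genes that were not specific to 1 part also had low signals in whole seeds. EXPA4, an expansin that loosens cell walls, had 855 and 874 in whole seeds, against means of 12682 in micropylar endosperm and 1641 in peripheral endosperm. XTH32, an enzyme that remodels xyloglucan in the wall, had 407 and 376, against 2571 and 3587 in those tissues and 65.4 in embryo. AT5G07260 had 1395 and 1128, against 9378 in chalazal endosperm. All 3 tested of 14 listed were lower in whole seeds than in micropylar endosperm (limma), beside 3.72% of all probe sets, and 2 were higher than in embryo, beside 3.54%. Against seed coat 0 of the 3 passed in either direction, and 2 were higher than in chalazal seed coat, beside 16.8%. Some genes named for embryo, endosperm and seed coat thus had signal together on both whole seeds arrays. Which tissue each signal came from was not tested.

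No tested gene of the cell death, transport and mucilage lists lay outside the range on both arrays, beside 13.2% of all probe sets. Lists this small can have 0 outside at that share, so these counts are no result about their members. Of 7 proteases tested of 13 listed, 4 were higher in whole seeds than in embryo, beside 3.54% of all probe sets. Against each of the other 5 compartments 3 of the 7 passed as lower, beside 2.6% to 12.4%, and 2 were higher than in chalazal seed coat and 2 higher than in seed coat, beside 16.8% and 14.2%. None of the 7 was outside the range. ALPHA-VPE, a vacuolar processing enzyme, had 4145 and 2282 in whole seeds, against 134 in embryo and 13040 in peripheral endosperm. DELTA-VPE, known from inner seed coat layers, had 208 and 204, against 25 in embryo and 1919 in seed coat. AT4G01610, a cathepsin B-like protease gene, had 664 and 1364, against 25 in embryo and 13300 in chalazal seed coat. Of 5 transport genes tested of 18 listed, 4 were higher than in embryo, beside 3.54% of all probe sets, and 0 were outside the range. In whole seeds 1 was lower than in micropylar endosperm, 2 than in peripheral endosperm, 2 than in chalazal endosperm, 2 than in chalazal seed coat and 1 than in seed coat, beside 2.6% to 12.4% of all probe sets. Against the same 5 compartments 2 were higher than in micropylar endosperm and 1 than in each of the others, beside 4.44% to 16.8%. SWEET11, a sugar transporter that feeds the embryo, had 1631 and 2566 in whole seeds, against 128 in embryo and 6627 in peripheral endosperm. Of 4 mucilage and integument genes tested of 18 listed, 4 were lower than in seed coat, beside 10.3% of all probe sets, and 0 were outside the range. Both flavonoid genes tested of 18 listed were lower than in chalazal seed coat, beside 12.4%. Of 3 meristem and patterning genes tested of 22 listed, OBE1 was the one outside the range, beside 13.2% of all probe sets. ALC, from the list for suspensor and silique wall, was inside it at 147 and 173. Lists for cell division (12 loci) and for vascular tissue and funiculus (10 loci) had 0 loci among the probe sets assigned to 1 gene. As 8730 probe sets of the array had no gene in the tables used, these loci may still be on it. The 2 measured stress genes did not pass the filter on dim probe sets. Whether tissue outside the 6 captures entered the sections therefore cannot be read from these lists.

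As a description of the mix, non-negative weights were fitted that rebuild the whole seeds signals of the 714 specific probe sets from the 6 compartment means. On the linear signals the embryo weight was 71.6% and 61.2% on both arrays, seed coat 11.5% and 6.19%, and chalazal seed coat 4.49% and 7.28%. When each transcript was first scaled to its highest compartment, a step chosen after the data were seen, the embryo weight was 54.3% and 54.5%, peripheral endosperm 24.6% and 31.7%, seed coat 9.69% and 6.41% and chalazal seed coat 3.4% and 2.6%. The embryo had the largest weight in both fits, while peripheral endosperm, with 0 specific transcripts of its own, had a weight of 0 in the first. From the second set of weights, predicted and measured log2 signals of the 13543 probe sets that were not specific correlated at 0.904 and 0.902. The whole seeds arrays themselves correlated at 0.914, but over all 14257 probe sets tested. No other weights were tried on these probe sets, so the correlations do not tell how well the weights are chosen. These weights are fitted multipliers of the compartment means, not shares of signal, cells or tissue volume. They had no fixed sum, and added up to 87.5% and 81.1% in the first fit and 93% and 96.8% in the second.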

How the data were processed

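RNA of 14 laser-captured samples in 7 groups was measured on ATH1 arrays. Per the submitters' processing notes the authors used GCOS, whose version is not given in the sources used here, and the deposited values are linear array intensities. These were kept as deposited, raised to a floor of 25 and log2-transformed. Of 22810 probe sets, 64 controls were left out. Tested were 14257 probe sets with both arrays of at least 1 group above their array's median. The platform and RefSeq tables assigned 7827 of these to 1 gene, 298 to several and 6132 to none, and a gene was read from its brightest probe set. Only 2 arrays per group limit the precision.

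In limma 3.58.1 (R 4.3.3) a single model estimated the 7 group means from the 14 arrays with an intensity trend in the variance, which left 7 degrees of freedom. Whole seeds were outside the range when all 6 differences had 1 sign, with the largest of the 6 p-values adjusted by Benjamini-Hochberg over all probe sets (threshold 0.05). Specific transcripts came from the 12 compartment arrays (6 degrees of freedom). Weights used pracma 2.4.4. The code was tested on simulated data with 200 probe sets moved outside the range. The range test called 31 of them at a shift of 2 (log2) and 173 at 4, with 0 false calls.

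Named were the 12 genes farthest outside on each side, the 6 farthest with a symbol, 3 shown and 3 lost per compartment, OBE1 and list members. Genes passing all 6 contrasts were named in addition, after their values were seen. Gene lists cover storage, LEA, photosynthesis, oil, flavonoids, mucilage, transport, proteases, cell division, meristem, endosperm, vascular, suspensor and stress genes. Chloroplast transcripts were those RefSeq places on the plastid genome, and mitochondrial ones were taken by symbol. Members, lists and comparisons were chosen with earlier results of these data known.

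Samples were not paired by replicate number in the main model. Over 21 pairs of groups, deviations correlated at -0.0618 to 0.0975, which cannot tell how the samples were collected. Alternatives were other floors, no filter, 3 scalings (quantiles, array medians, 9 spike-in controls), a replicate block, no variance trend and each array left out.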

Additional observations from a re-analysis of the deposited data

How the results depend on the processing

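The 0 calls outside the range held under every alternative run except a floor of 100, which called 1 probe set above. With no floor, 384 probe sets were specific, 363 shown and 7 lost, and the percent retained was 47.5 for embryo and 12.3 for chalazal endosperm. With a floor of 100 these were 1414 specific and 279 lost, with 55, 19.4, 13.5 and 19.8 percent retained for embryo, chalazal endosperm, chalazal seed coat and seed coat. Without the filter, 1309 probe sets lay below the range, 375 were shown and 63 lost, calls were 436 against embryo, 866 against micropylar and 568 against peripheral endosperm, and 13.3 and 16.5 percent were retained for chalazal endosperm and seed coat. Quantile normalization retained 50.9, 9.42 and 6.98 percent for embryo, chalazal endosperm and chalazal seed coat, and division by the median 43.2, 8.65 and 6.83, with 442 probe sets above the range and 1391 below. Spike-in scaling gave 384 below, 5600 calls against seed coat, and 53.7, 8.05, 9.52 and 14.7 percent for those 3 and seed coat. Over all probe sets the median difference (log2, whole seeds minus compartment) was 0.01 to 0.11 as deposited, -0.29 to 0.15 after division by the median, and -0.36 to 1.08, highest for seed coat, under spike-in scaling. Passing all 12 compartment arrays left 509 and 245 probe sets, and a distance of 1 (log2) left 35 and 35. Fitted weights in place of the percent retained were 66.4, 3.22, 5.89 and 8.84 percent for embryo, chalazal endosperm, chalazal seed coat and seed coat. With scaled transcripts they were 54.4, 1.3, 3 and 8.05 percent, an alternative added after the data were seen. Also added then were the range without seed coat, the filter on compartment arrays alone and the requirement of all 6 contrasts.

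Whether samples with the same replicate number were collected together is not stated in the labels. With the replicate number as a block, 0 and 0 probe sets were called outside the range, and 715, 1455, 1050, 2397, 4227 and 3546 were called against embryo, micropylar, peripheral and chalazal endosperm, chalazal seed coat and seed coat.

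With 1 array left out, the counts above and below the range were 981 to 2095 and 791 to 1932, where a single whole seeds array suffices in the highest counts, and calls outside the range stayed at 0 to 0. Specific, shown and lost counts were 474 to 712, 397 to 647 and 24 to 83. Calls were 254 to 777 against embryo, 483 to 1595 against micropylar, 287 to 1134 against peripheral and 947 to 2600 against chalazal endosperm, 2538 to 4428 against chalazal seed coat and 1653 to 3682 against seed coat. The percent retained was 43.4 to 51.5 for embryo, 5.24 to 10.7 for chalazal endosperm, 5.32 to 7.88 for chalazal seed coat and 8.57 to 15.9 for seed coat. The cause of these changes was not tested.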
